A study of Homo sapiens with 4 samples.

Results

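The mRNAs of the IGF-binding proteins IGFBP1 to IGFBP7, of the receptors IGF1R and INSR and of the docking protein IRS1 were examined in PC9 cells, a human lung adenocarcinoma line, after knockdown of the spindle assembly factor TPX2. These 10 genes, out of 18134 in the gene table, were chosen by name, and the choice was made with the shTPX2 against shNC contrast already known, since IGFBP5 had the clearest decrease of the family. Group differences of the 10 genes are therefore given as a description: where the study's criteria are applied to them, the count stands beside that of all genes and serves as no test of the 10. Poly(A)-selected RNA was sequenced from 2 libraries of cells infected with lentivirus carrying a short hairpin RNA against TPX2 (shTPX2) and 2 libraries of cells carrying the control hairpin (shNC). Both groups were kept under antibiotic selection as stable lines in DMEM with serum, all libraries carry the same batch label, and the study's oligonucleotide table lists 1 hairpin sequence against TPX2. The labels do not say whether replicates came from separate cultures, so the spread between them may be technical.

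The insulin-like growth factors IGF1 and IGF2 are secreted peptides that signal through IGF1R, a receptor tyrosine kinase, and through hybrids of IGF1R with the insulin receptor INSR. Active receptors phosphorylate docking proteins such as IRS1, which recruit PI3K and so switch on AKT. IGFBP1 to IGFBP6 bind the ligands with high affinity outside the cell, holding them away from the receptor or delivering them to it, and proteases release the ligand by cutting the binding protein. IGFBP5 also binds the extracellular matrix, and IGFBP7 has a low affinity for the IGFs.

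The position of each gene in GRCh38 (GENCODE v29) is shown because the family sits partly in pairs. IGFBP2 lies at chr2:216632828-216664436 on the plus strand and IGFBP5 at chr2:216672105-216695525 on the minus strand, tail to tail, 7668 bp apart with 0 annotated genes between them. IGFBP1 at chr7:45888357-45893668 on the plus strand and IGFBP3 at chr7:45912245-45921874 on the minus strand form the second pair, 18576 bp apart, again with 0 genes between. IGFBP4 (chr17:40443461-40457731, plus), IGFBP6 (chr12:53097436-53102345, plus) and IGFBP7 (chr4:57030773-57110385, minus) stand alone in the family. IGF1R spans chr15:98648539-98964530 on the plus strand, INSR chr19:7112255-7294034 on the minus strand and IRS1 chr2:226731317-226799759 on the minus strand. Annotated antisense transcripts overlap IGFBP5 (AC007563.2), IGFBP7 (IGFBP7-AS1, and the 3′ end of POLR2B) and IGF1R (AC069029.1 and AC036108.1), and the strand setting of the counting was not given, so reads of these partners cannot be told apart from those of the genes.

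The 250 bases upstream of the transcription start (RefSeq, GRCh38.p14), written on the strand of the gene, are given for the binding protein with the largest difference, for the receptor that also passed the study's criteria, and for IGFBP3, an abundant binding protein with little difference. The stretch shown for IGFBP3 lies inside the GENCODE span of the gene, since longer isoforms start upstream of the RefSeq start. Capitals mark matches on either strand to GGGCGG (SP1) or GCCNNNGGC (AP-2).
IGFBP5, chr2:216695550-216695799, minus strand: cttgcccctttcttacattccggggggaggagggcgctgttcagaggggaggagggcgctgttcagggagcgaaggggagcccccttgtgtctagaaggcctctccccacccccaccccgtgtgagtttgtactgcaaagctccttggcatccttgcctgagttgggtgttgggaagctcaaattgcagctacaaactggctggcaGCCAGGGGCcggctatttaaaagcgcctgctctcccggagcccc
IGF1R, chr15:98648289-98648538, plus strand: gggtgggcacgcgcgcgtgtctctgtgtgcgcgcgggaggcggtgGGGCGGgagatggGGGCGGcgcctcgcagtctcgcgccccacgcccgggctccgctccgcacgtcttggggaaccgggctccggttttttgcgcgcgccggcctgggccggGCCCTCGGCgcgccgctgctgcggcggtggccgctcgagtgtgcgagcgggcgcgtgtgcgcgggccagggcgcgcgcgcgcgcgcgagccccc
IGFBP3, chr7:45921273-45921522, minus strand: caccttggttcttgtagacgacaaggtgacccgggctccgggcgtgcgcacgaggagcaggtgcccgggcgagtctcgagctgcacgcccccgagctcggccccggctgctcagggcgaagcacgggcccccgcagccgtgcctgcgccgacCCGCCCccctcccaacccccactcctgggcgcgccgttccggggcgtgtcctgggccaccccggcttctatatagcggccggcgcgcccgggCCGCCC
In the window from 250 bases before to 50 after the start, the IGFBP5 promoter was 59.0% GC, against 79.7% for IGF1R, 74.7% for IGFBP3 and a median of 58.7% over 35116 promoters. Promoters of 8 of the 10 genes were in the table, without IGFBP1 and IGFBP7. IGFBP2 had several, so the 8 genes had 10 promoters. A gene was counted if any of its promoters matched, whereas the shares of all promoters are per promoter. GGGCGG was found in 7 of these 8 genes, with IGFBP5 the gene that had no match, and in 45.0% of all promoters. GCCNNNGGC was found in 5 of the 8 (IGFBP5 at position -44, IGF1R, IGFBP6, INSR and IRS1) and in 23.2% of all promoters. GTAAACA (FOXO) was found in IGFBP6, TATAAA (a core promoter element) in IGFBP4, CACGTG (E-box) in IRS1 and TGANTCA (AP-1) in 0 of the 8, against 3.42%, 11.5%, 7.26% and 7.71% of all promoters. These matches describe letters in one window and say nothing of binding.

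The hairpin carries the target sequence cgtgaacttgatcccagaata, which matched in full the longest coding transcript of 1 gene of 19669, TPX2. The antisense strand is shown with its bases 2 to 8 in capitals, on the assumption that the guide begins at its first base, because these bases fix which short matches can be searched in the family.
shTPX2 antisense strand: tATTCTGGgatcaagttcacg
The reverse complement of the capitals, CCAGAAT, was found once in the longest coding transcript of IGFBP5, IGF1R, IRS1 and IGFBP7, each time in the 3′ untranslated region. Anywhere in the longest coding transcript, it was found in 27.3% of the 19669 genes, which is not a share for 3′ untranslated regions. The 4 transcripts were 6215, 12235, 9705 and 1427 bases long, and a longer transcript leaves more room for a match. The 4 sites are given with 10 bases on either side.
IGFBP5, chr2:216673077-216673083, minus strand: gggctccggcCCAGAATgggaacctca
IGF1R, chr15:98960719-98960725, plus strand: agcctgtgcgCCAGAATgcagaggctc
IRS1, chr2:226736024-226736030, minus strand: cactgtgacaCCAGAATaatgagtctg
IGFBP7, chr4:57031306-57031312, minus strand: ctataaacctCCAGAATattattagtc
The longest exact match to the 21-base target was 6 to 11 bases in the 10 genes, with 11 in IGF1R and 8 in IGFBP5. Whether the hairpin acted on any of these transcripts was not tested, and the search was chosen after the values had been seen.

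The libraries held 20906441 to 21972583 expected counts, the deposited estimates of reads per gene. They did not separate by group: the most alike pair was shNC 1 and shTPX2 1 (mean chi-square per gene 39.0, Pearson r of log2 CPM across genes 0.983), closer than the shNC replicates (71.5 and 0.972), and shNC 2 was at 62.7 or more from each other library. TPX2 itself was at 55.0 and 112 TPM (a level per transcript length, scaled to the same total in each library) in the shNC libraries and at 43.4 and 43.8 TPM in the shTPX2 libraries, a log2 fold change of -0.81 (SE 0.32) that ranged from -1.21 to -0.24 when 1 library at a time was left out. The log2 CPM (counts scaled to library size) of shNC 2 lay 0.98 above those of shNC 1, and without shNC 2 the log2 fold change was -0.24, so the size of the knockdown rests on that library. Markers of epithelial cells were all present, 7 of 7 at 78.4 TPM or more in every library and with summed levels of 24156 to 25862 TPM in shTPX2 against 20157 to 27730 TPM in shNC. Of 6 fibroblast markers, 5 stayed under 1 TPM in every library and LUM was at 0. The exception was COL1A1, at 5.72 and 8.04 TPM in shTPX2 against 8.64 and 11.99 TPM in shNC. The summed level of the 6 markers was 5.90 and 8.29 TPM in shTPX2 against 9.19 and 12.4 TPM in shNC. The 4 endothelial markers summed to 31.1 and 36.5 TPM in shTPX2 against 19.9 and 32.6 TPM in shNC, mostly CDH5 and PECAM1, with KDR and VWF under 1 TPM, and the 4 immune markers to 170.3 to 193 TPM against 128 to 224 TPM, nearly all CD68, with PTPRC and CD3E under 1 TPM. The part of these markers in the results was not tested.

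In control cells, IGFBP5 had the highest mean level of the 10 genes per transcript length, though its range overlapped that of IGFBP2. After the knockdown it ranked below 4 other binding proteins. IGFBP5 stood at 266 and 244 TPM in the shNC libraries and at 44.6 and 43.1 TPM in the shTPX2 libraries, from 17443 and 15907 expected counts against 3086 and 2859. Both shTPX2 libraries lay far below both shNC libraries, and replicates were close together in each group. In bulk RNA, fewer cells that express the gene and less of its RNA per cell cannot be told apart. The group means were 255 ± 15.0 TPM (SD, n = 2) and 43.9 ± 1.05 TPM (SD, n = 2), and the edgeR log2 fold change was -2.42 (SE 0.19). IGFBP5 moved from rank 575 of 18134 genes by mean TPM in shNC to rank 3603 in shTPX2. Leaving out 1 library at a time gave log2 fold changes of -2.50 to -2.32, and the other settings gave -2.54 to -2.40.

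IGFBP2, a binding protein with a preference for IGF2, came next in shNC, with 182 and 259 TPM, against 166 and 164 TPM in shTPX2. Both knockdown libraries were below both controls, but the gap between the control replicates was wider than the gap between the lower control and the knockdown libraries. The log2 fold change was -0.26 (SE 0.19) and lay between -0.41 and -0.09 when libraries were left out. In shNC the library ranges of IGFBP5 and IGFBP2 overlapped, so their order there did not exceed the spread, whereas in shTPX2 IGFBP2 ranked highest of the 10 genes and its range was apart from that of the next. IGFBP5 was at 1.46 and 0.943 times the IGFBP2 level in shNC and at 0.268 and 0.262 times in shTPX2.

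IGFBP3, the main carrier of IGFs in serum, was at 116 and 164 TPM in shNC and at 103 and 150.2 TPM in shTPX2. The groups overlapped, replicate 2 was the higher library in both, and the log2 fold change was -0.02 (SE 0.25). IGFBP6, which prefers IGF2, was at 128 and 114 TPM in shNC and at 126 and 54.9 TPM in shTPX2. Only shTPX2 2 was low, the first knockdown library lay within the control range, and the log2 fold change was -0.29 (SE 0.38). IGFBP4, a substrate of the protease PAPPA, was at 77.8 and 86.5 TPM in shNC and at 83.5 and 52.3 TPM in shTPX2. Again the low value came from shTPX2 2 alone, and the log2 fold change was -0.15 (SE 0.25). Without shTPX2 2 the log2 fold changes of IGFBP6 and IGFBP4 were 0.21 and 0.18, and without shTPX2 1 they were -1.03 and -0.54.

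IGFBP1, a binding protein made mainly by the liver, and IGFBP7 were near the detection limit and did not pass the filter on low counts. IGFBP1 had 2 and 12 expected counts in shNC and 8 and 1 in shTPX2, which are 0.12, 0.74, 0.46 and 0.06 TPM. IGFBP7 had 2 and 4 expected counts in shNC and 5 and 10.1 in shTPX2, or 0.19, 0.38, 0.44 and 0.87 TPM. At this depth no difference of either gene can be read from 12 or fewer counts a library.

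**Figure D1:**
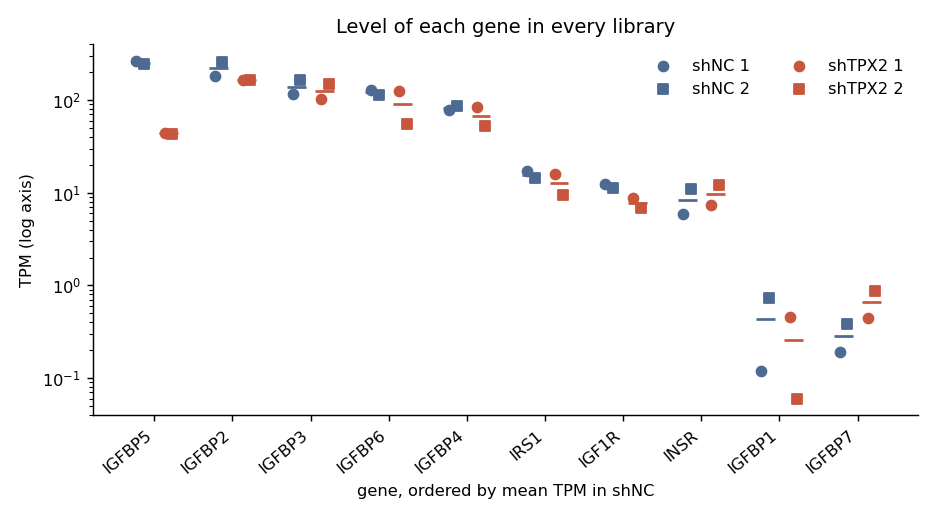
Level of the 10 genes in TPM (log axis) in each of the 4 libraries, ordered by the mean of the shNC libraries, with short lines at the group means (n = 2). IGFBP5 is the gene whose shTPX2 libraries (44.6 and 43.1 TPM) sit well below its shNC libraries (266 and 244 TPM), while most other genes overlap and IGFBP1 and IGFBP7 lie under 1 TPM.

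Counted together, the 7 binding protein mRNAs came to 770.1 and 868 TPM in shNC and to 524 and 466 TPM in shTPX2. The sums of both knockdown libraries were below those of both controls. Without IGFBP5 the sums were 505 and 624 TPM in shNC and, after knockdown, 479.8 and 423 TPM. Both shTPX2 libraries were lower, although the gap between the control libraries was wider than that between shTPX2 1 and shNC 1. In other units shNC 1 and shTPX2 1 hardly differed. Their sums without IGFBP5 were 240.2 and 239.2 by FPKM, another level per transcript length, and 8837 and 8801 by expected counts. IGFBP5 made up 34.5% and 28.1% of the summed TPM in shNC and 8.50% and 9.25% in shTPX2, with means of 31.3% ± 4.48 and 8.88% ± 0.529 (SD, n = 2). The share of IGFBP2 was 23.7% and 29.8% in shNC and 31.7% and 35.3% in shTPX2, and that of IGFBP3 15.1% and 18.8% against 19.7% and 32.2%. Shares sum to a fixed total, so a smaller share of IGFBP5 raises the others by itself. IGFBP5 has a long transcript, and by expected counts, which are not per length, its share was 62.9% in shNC and 26.0% in shTPX2.

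**Figure D2:**
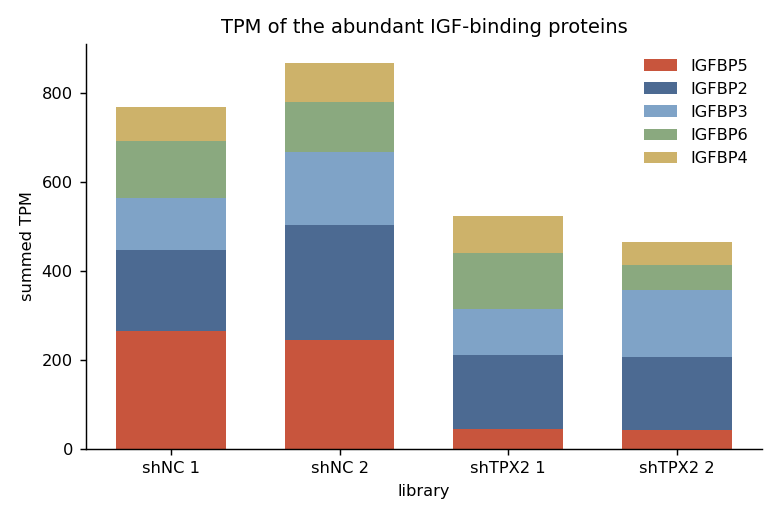
Summed TPM of the 5 abundant IGF-binding proteins in each library, stacked by gene. The IGFBP5 block at the base is 34.5% and 28.1% of the family total in shNC and 8.50% and 9.25% in shTPX2, while the rest of each bar differs less.

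Among the receptors, IGF1R was lower in both knockdown libraries and INSR followed the replicate number more than the group. IGF1R, the main signalling receptor of both IGFs, was at 12.4 and 11.1 TPM in shNC and at 8.83 and 6.83 TPM in shTPX2, from 1369 and 1398 expected counts against 1059 and 845. The groups did not overlap, and the log2 fold change was -0.47 (SE 0.18). Leaving out shTPX2 1 gave -0.62, and leaving out shTPX2 2 gave -0.32, which no longer met the study's criteria described below. Counts per TPM, which follow the transcript length used in the authors' quantification, varied by 14.4% between libraries for IGF1R and by 9.64% for IGFBP2, against 1.17% to 1.40% for the other 6 genes tested, so the length assigned to these 2 genes was not the same in every library.

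INSR, the insulin receptor, was at 5.87 and 11.1 TPM in shNC and at 7.42 and 12.2 TPM in shTPX2. Replicate 2 was the higher library in both groups, the groups overlapped, and the log2 fold change of 0.34 (SE 0.34) was the single positive one of the 8 genes tested. IGF1R was at 2.11 and 1.01 times the INSR level in shNC and at 1.19 and 0.561 times in shTPX2, with overlapping groups. IRS1, the docking protein that links both receptors to PI3K, was at 17.1 and 14.3 TPM in shNC and at 15.9 and 9.48 TPM in shTPX2. The group difference was -0.18 on the log2 scale (SE 0.28), and as for IGFBP4 and IGFBP6 the low library was shTPX2 2. In shNC the levels ran from IGFBP4 down through IRS1 and IGF1R to INSR, with library ranges apart at each step. For IGF1R and INSR they were barely apart, at 11.14 TPM for the lower IGF1R library and 11.05 TPM for the higher INSR library. The order of these 2 receptors is therefore not read as a difference. In shTPX2 the ranges of IRS1 and INSR, and of INSR and IGF1R, overlapped.

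The study's criteria, applied here with limma voom, were an unadjusted p no higher than 0.1 together with a change of 0.3 or more on the log2 scale in either direction. Of the 10 genes, 8 passed the filter on low counts, 2 of them (IGFBP5 and IGF1R) met these criteria as lower in shTPX2 and 0 as higher. Over all 14048 genes tested 14.2% met them, 7.99% as lower (1122 genes) and 6.24% as higher (876 genes), a split that became 1445 and 578 genes when libraries were scaled by size only. Groups did not overlap for 3 of the 8, all lower (IGFBP5, IGF1R and IGFBP2), and for 39.6% of all genes in either direction, or 20.2% as lower. Log2 fold changes were below 0 in 7 of the 8, with a median of -0.22 against -0.01 over all genes tested. Without shTPX2 1 the criteria were met by 6 of the 10 genes and 1580 of all genes, without shTPX2 2 by 1 and 1018, and without shNC 1 by 3 and 3515, against 2 and 1998 from all libraries. Because the genes were picked with this contrast known, nothing is read from these counts. In 6 of the 8 genes the larger of the replicate differences exceeded the difference between the groups, the exceptions being IGFBP5 and IGF1R. With edgeR's quasi-likelihood test, 0 of 14048 genes (0.0%) reached an adjusted p under 0.05, 1128 (8.03%) had an unadjusted p under 0.05 (4.90% lower and 3.13% higher), and DESeq2 called 111 (0.79%) at the same adjusted threshold. The edgeR count was 23 without shNC 1 and 11 without shNC 2.

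**Figure D3:**
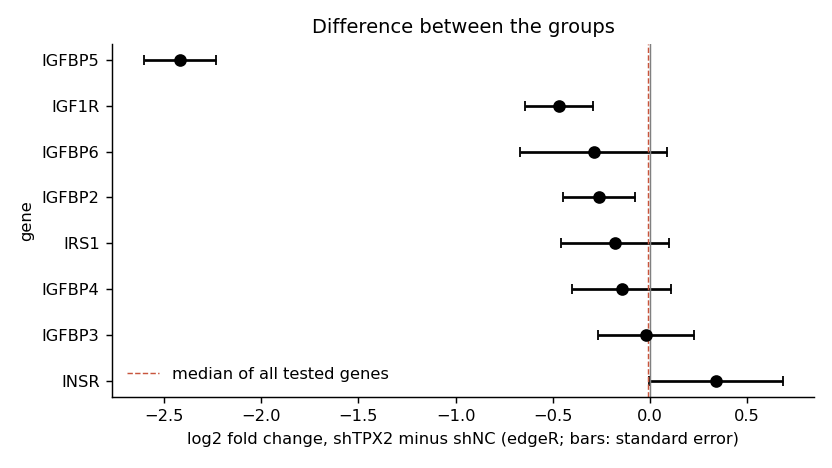
Log2 fold change of shTPX2 against shNC for the 8 genes tested (edgeR, bars show the standard error), with a dashed line at the median of all tested genes, -0.01. IGFBP5 lies at -2.42 and the other 7 genes lie between -0.47 and 0.34.

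**Figure D4:**
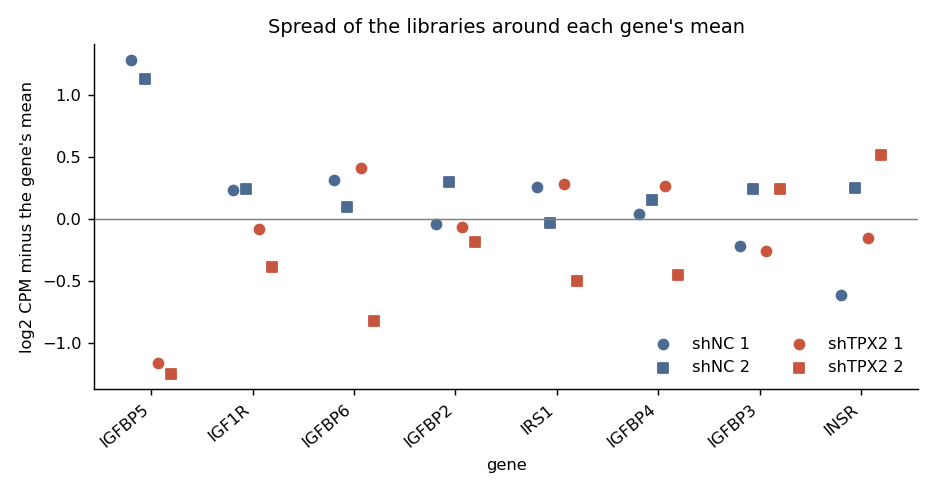
Log2 CPM of each library minus the mean of the gene over the 4 libraries. The groups are widely apart for IGFBP5, whereas for IGFBP6, IRS1 and IGFBP4 the library shTPX2 2 is the low one, and for IGFBP3 and INSR the replicates 2 (squares) are high in both groups.

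Several lists of genes that surround the family were then counted with the same criteria. The lists were written with earlier results of these data known. Their counts are therefore a description beside those of all genes, and nothing is read from the difference. Leaving out 1 library also moved the number of calls over all genes, as given above. Nothing is read from such changes in a list. The lists held 81 distinct genes tested, of which 16 (19.8%) were called lower and 1 (1.23%) higher, against 7.99% and 6.24% of all genes. With edgeR, 0 of the 81 reached an adjusted p under 0.05. An unadjusted p under 0.05 was reached by 8 of the 81, against 8.03% of all genes. DESeq2 called 3 (MMP14, FN1 and TNC) at an adjusted p under 0.05, against 0.79% of all genes. Of the ligands, IGF2 was expressed at 120.5 and 94.25 TPM in shNC and at 117 and 65.7 TPM in shTPX2, with overlapping groups and a log2 fold change of -0.09 (SE 0.32). IGF1 was at 0.25 and 0.47 TPM in shNC and at 0.21 TPM in both shTPX2 libraries. Neither was called, and 1 of the pair was called without shTPX2 1. INS was not among the genes of the gene table, so it could not be analysed.

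Of 12 other receptors and docking proteins tested, 2 were called lower and 0 higher, with a median log2 fold change of -0.19. IGF2R, which clears IGF2 by carrying it to lysosomes, was not called, at 41.9 and 37.4 TPM against 30.8 and 31.6 TPM, with a log2 fold change of -0.22 (SE 0.17). IRS2, the close relative of IRS1, was not called either, at 35.8 and 26.3 TPM against 25.4 and 23.8 TPM. The called genes were the adaptor SHC1, at 181 and 251 TPM in shNC and, after knockdown, 150.2 and 153 TPM, and the receptor-binding inhibitor GRB14, at 1.86 and 2.92 TPM against 1.33 and 0.69 TPM. The count of 2 became 1 without shNC 2 and 0 without shTPX2 2.

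In the list of PI3K, AKT and FOXO genes, 2 of 19 were called lower and 1 higher, and the median log2 fold change was 0.00. The lower genes were the PI3K catalytic subunit PIK3CA (16.0 and 14.6 TPM against 11.2 and 11.3 TPM) and the regulatory subunit PIK3R1 (2.98 and 2.69 TPM against 1.59 and 1.97 TPM). The kinase AKT1 was higher, at 67.1 and 78.9 TPM in shNC and, after knockdown, 91.2 and 89.7 TPM. Without shTPX2 2, 1 of the 19 genes was called. Of 14 target genes of the FOXO factors, which AKT inhibits, 2 were called lower and 0 higher, with a median of -0.20. These were TXNIP, the thioredoxin-binding protein, at 258 and 567 TPM against 171 and 163 TPM, and the transcription cofactor CITED2, at 199 and 168 TPM against 112 and 83.4 TPM. The number of calls in this list rose without shNC 1 and without shTPX2 2. Over all genes it also rose without shNC 1, but fell without shTPX2 2.

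Proteases that can cut IGF-binding proteins, with their inhibitors, gave 4 genes called lower and 0 higher of 18 tested, with a median of -0.22. The membrane-bound MMP14 had 1.91 and 3.94 TPM in shNC and, after knockdown, 0.25 and 0.47 TPM, with a log2 fold change of -2.88 (SE 0.55). MMP1 (0.61 and 0.57 TPM against 0.22 and 0.05 TPM), ADAM28 (0.64 and 0.54 TPM against 0.11 and 0.17 TPM) and STC1, an inhibitor of PAPPA (3.02 and 2.46 TPM against 1.70 and 1.27 TPM), were the others. All 4 were under 4 TPM in every library, and MMP1 and ADAM28 rested on few reads, with 13 and 12 expected counts against 5 and 1, and 25.2 and 19.3 against 7 and 6. The number of calls in the list rose without shNC 1, as did that over all genes.

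The partners of IGFBP5 tested were matrix and cell-surface proteins, apart from the LIM protein FHL2, which is neither. This list had the lowest median, -0.75, with 4 of 6 called lower and 0 higher. Fibronectin, FN1, was at 452 and 331 TPM in shNC and at 196 and 100.2 TPM in shTPX2, with a log2 fold change of -1.27 (SE 0.36). Tenascin C, TNC, was at 7.72 and 13.7 TPM against 4.60 and 3.72 TPM, a log2 fold change of -1.18 (SE 0.29). Osteopontin, SPP1, was at 450.2 and 473 TPM against 99.1 and 369 TPM, where shTPX2 1 alone was far below the controls, and the LIM protein FHL2 was at 156 and 198 TPM against 134 and 71.9 TPM. Without shNC 2 the count was 2 of the partners.

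Of 7 other proteins with an IGFBP-type domain tested, CRIM1 was called lower (68.8 and 64.4 TPM against 49.3 and 35.0 TPM) and 0 higher, with a median of -0.53. Of the 3 IGF2 mRNA-binding proteins, IGF2BP3 was called lower, at 56.7 and 61.8 TPM against 48.6 and 34.6 TPM, with a median of -0.20. The calls of both lists depended on single libraries, since CRIM1's list gave 0 without shNC 1 or shTPX2 2 and 2 without shNC 2 or shTPX2 1, and that of IGF2BP3 gave 0 without shNC 1, shNC 2 or shTPX2 2.

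**Figure D5:**
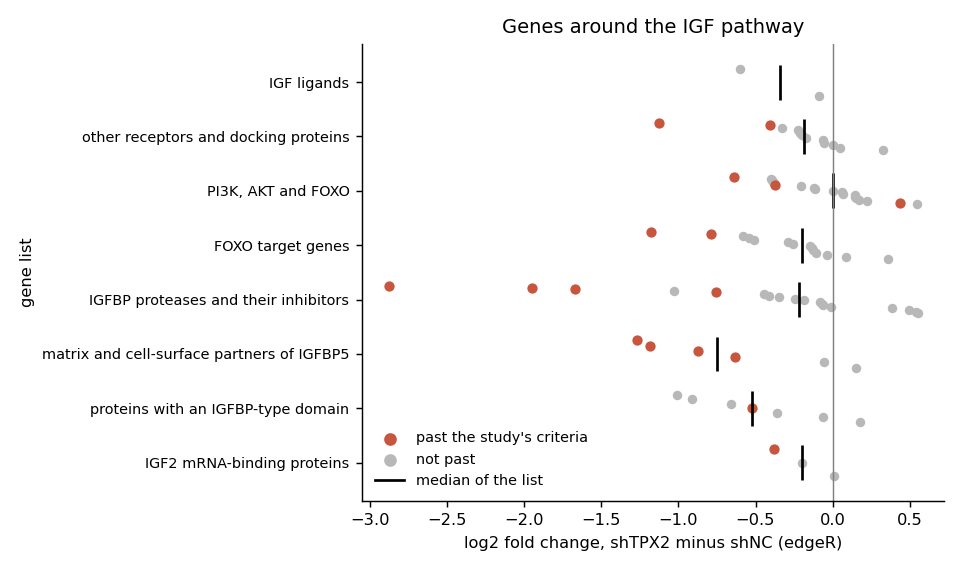
Log2 fold change of shTPX2 against shNC (edgeR) for every tested gene of the 8 lists, with genes past the study's criteria in red and the list median as a black line. The partners of IGFBP5 have the lowest median (-0.75), MMP14 among the proteases is the lowest gene (-2.88), and AKT1 is the one red point above 0.

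The genes whose profile over the 4 libraries was most like that of IGFBP5, by the root mean square difference of centred log2 CPM over 4 libraries, were FAM84A (0.179), LPL (0.179), COL4A4 (0.196), FAM81B (0.203) and SYNE1 (0.204). They were expressed at far lower levels than IGFBP5. The IGFBP5 profile is mainly the group difference for which it was picked. Genes near it must share that difference, and nothing is read from it. LPL, lipoprotein lipase, had 67 and 76 expected counts in shNC and 11 and 8 in shTPX2, and COL4A4, a type IV collagen chain, had 130 and 92 against 21 and 14. FAM84A, FAM81B and SYNE1 had 10 to 20 counts in the shNC libraries and 1 or 2 in the shTPX2 libraries, so the likeness of these 3 rests on very few reads. Their edgeR log2 fold changes were -3.24, -3.15 and -3.52, against -2.42 for IGFBP5.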

How the data were processed

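Poly(A) RNA of 4 PC9 libraries (2 shNC, 2 shTPX2) was analysed from the deposited gene table of 18134 genes. The authors cleaned reads with SOAPnuke, aligned them with HISAT2 or Bowtie2 and quantified genes with RSEM or StringTie, while the submitters' processing notes name HISAT2, featureCounts, DESeq2 and GRCh38, and the annotation is not given in the sources used here. The deposited read counts are expected counts, since 42.2% to 44.6% of them were not whole in a library, and the file also holds TPM and FPKM values made by the authors. Expected counts were rounded to whole numbers. Genes were filtered with filterByExpr (14048 kept), scaled by TMM and fitted with edgeR 4.0.16 (quasi-likelihood, Benjamini-Hochberg adjustment) in R 4.3.3. The study's criteria were applied with limma 3.58.1 voom, and DESeq2 1.42.0 was an alternative. The scripts were tested on simulated data.

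Levels are TPM with mean ± SD (n = 2). The edgeR test gives no standard error. The SE shown was derived as the size of the log2 fold change divided by the square root of its F statistic. The replicates of a group were not duplicates: their counts differed by a mean chi-square of 71.5 in shNC and 42.8 in shTPX2 per gene. The 10 genes and the lists were chosen with earlier results of these data known. Genes named from the lists were IGF1, IGF2, INS, IGF2R, IRS2 and those past the study's criteria, and the 5 genes nearest to IGFBP5 in profile were added. Of the list genes, 7 were matched under an older symbol. Columns of group means made by the authors were used in no test. Protein sequences were not used here. With 2 libraries a group, an exact permutation test could not reach significance and none was run. The range of counts limits precision for IGFBP1 and IGFBP7.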

Additional observations from a re-analysis of the deposited data

How the results depend on the processing

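The log2 fold change of IGFBP5 was -2.51 and -2.54 from log2(TPM + 1) and log2(TPM + 0.1), and -2.50 to -2.32 with 1 library left out. IGF1R did not meet the study's criteria without shTPX2 2. The number of the 10 genes called ranged from 1 to 6 with 1 library left out, with 6 without shTPX2 1. Genes called by the study's criteria ranged from 1018 (without shTPX2 2) to 3515 (without shNC 1), and by edgeR's adjusted p from 0 to 23, while DESeq2 called 111. Library size alone gave 578 genes higher, against 876. With 1 library left out, calls ranged from 0 to 1 for the ligands, 0 to 3 for other receptors and docking proteins, 1 to 4 for PI3K, AKT and FOXO, 3 to 5 for FOXO targets, 3 to 8 for proteases, 2 to 3 for partners of IGFBP5, 0 to 2 for IGFBP-type domains and 0 to 1 for IGF2 mRNA-binding proteins. A fit with 1 library in a group assumes that it varies like the other group. Calls among other receptors and docking proteins fell to 1 without the filter, with quantile normalization and with DESeq2, those among proteases to 2 with at least 10 counts in every library, and those among IGF2 mRNA-binding proteins to 0 without the filter and with DESeq2. The cause was not tested. The IGFBP5 share by expected counts was 62.9% in shNC and 26.0% in shTPX2. The order of levels was the same by FPKM. The replicate block gave -2.42 for IGFBP5, 3 of the 10 genes and 2447 genes called, and 2 calls among IGFBP-type domains. The replicate numbers are not stated to mark a shared culture, and the differences of replicate 2 from 1 correlated by 0.182 between the groups. Log2 fold changes of IGFBP3, IGFBP4, IGFBP6, INSR and IRS1 changed sign in 1 or 2 of the 13 settings. With 2 libraries a group, differences within the replicate spread were not detectable.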

Other observations

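The deposited table also holds the authors' group means, which differ from the means of the 2 listed libraries of each group. For IGFBP5 the authors' mean was 170.02 TPM in shNC and 22.005 TPM in shTPX2, against 255 and 43.9 TPM from the libraries, and for IGFBP7 it was 1.17 and 3.41 TPM against 0.285 and 0.655 TPM. The authors' mean of expected counts equalled the mean of the 2 libraries, within 0.01 counts, for 2.80% of genes in shNC and 3.34% in shTPX2. Over 9072 genes whose library counts were all whole, the authors' mean became whole, within the same 0.01 counts, when multiplied by 3 for 97.4% of genes in shNC and when multiplied by 4 for 96.4% in shTPX2. If these columns were plain means over 3 and 4 libraries that include the listed ones, the remaining 1 shNC and 2 shTPX2 libraries would together hold 13 and 23 counts of IGFBP5, and 9178 and 6348 counts of TPX2. What further libraries entered the columns is not given in the sources used here, and no group difference was drawn from them.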
